A study of Mus musculus with 6 samples.

Results

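The genes that write, erase and read DNA methylation were followed in immortalized fibroblasts of the mouse pancreas. The 10 genes are Dnmt1, Dnmt3a, Dnmt3b, Uhrf1, Tet1, Tet2, Tet3, Tdg, Trim28 and Mbd2. They were taken from the deposited count table by an exact match of the gene symbol. Each had 1 row among the 14831 genes of the table, and all 10 were among the 14289 genes tested after a filter on low counts.

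Poly-A RNA was sequenced from 6 libraries, 3 labelled WT and 3 labelled KO, with the genotype of the latter given as Gli2-/-;Gli3-/- and the strain of both as Mixed. Gli2 and Gli3 encode transcription factors of the Hedgehog pathway, and the design asks which genes differ when both are deleted in fibroblasts. Per the study's methods, the lines were grown out from the pancreas of adult mice that carry floxed Gli alleles and were then immortalized. Control cells received Ad5 CMV-eGFP and Lenti dsRed, whereas deleted cells received Ad5 CMV-eGFP and Ad5 CMV-Cre, and infected cells of both kinds were sorted. Cre was thus added in culture under a general viral promoter, and the groups also differ in the viruses they received, which cannot be told apart from the deletion. Each library is a separate culture well taken at confluence, and the number of lines or clones behind the wells is not given in the sources used here. The p-values below therefore measure the spread between wells.

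DNA methylation in mammals sits mostly on the cytosine of CG dinucleotides. DNMT3A and DNMT3B place new marks, while DNMT1 copies existing marks onto the new strand behind the replication fork, where UHRF1 binds hemimethylated sites and recruits it. TET enzymes oxidize the methyl group, and TDG excises the oxidized base so that base excision repair can restore a plain cytosine. TRIM28 is brought to DNA by zinc finger proteins and assembles silencing complexes that help to keep imprinted regions and transposons methylated, and MBD2 reads methylated CG sites. In fibroblasts, which divide in culture, DNMT1 and UHRF1 are known to be more abundant in cycling cells.

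Library totals ran from 31728420 to 41035931 counts, so that a count of 3 corresponds to 0.0720 to 0.0957 CPM (the counts-per-million level of a library, here scaled by the trimmed mean of M values). The summed counts of the targeted genes went against the labels. Gli2 had 809, 944 and 868 counts in the WT-labelled libraries and 1932, 2316 and 1926 in the KO-labelled libraries. Gli3 had 392, 416 and 398 counts against 1434, 1637 and 1404. Both were therefore higher in the KO-labelled libraries, by 1.05 ± 0.04 (SE) for Gli2 and 1.71 ± 0.05 for Gli3 on the log2 scale. These counts are summed over all exons of a gene, and a transcript that lacks a deleted exon is still counted, so they do not check the deletion itself. Per the study's methods, recombination in the sorted cells was checked by western blot and qPCR. Gli1, a Hedgehog target gene that was not deleted, had 40, 50 and 37 counts against 4, 10 and 13, and fell by 2.40 ± 0.31 on the log2 scale. Groups are therefore named by their labels alone, and every direction below is that of the KO-labelled relative to the WT-labelled libraries. Pooled counts of epithelial and of macrophage markers also differed between the groups, while those of the only endothelial marker with a row overlapped. They are given with the pathway lists.

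The start regions of Dnmt1 and Uhrf1 are shown because both genes rose with the replication genes described below, many of which carry E2F sites at their starts. E2F proteins are transcription factors that drive genes at entry into DNA synthesis. Windows from 250 bases before to 50 bases after annotated starts were taken from RefSeq (GRCm38.p6), and 4 words of the E2F site, TTTCCCGC, TTTCGCGC, TTTGCCGC and TTTGGCGC, were searched on both strands. The word is in capitals in the stretches of 30 bases below, each written in the direction of transcription, 5′ to 3′.
Dnmt1, word at chr9:20952835-20952842, 219 bases before a start: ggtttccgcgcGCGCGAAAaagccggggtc
Dnmt1, word at chr9:20952583-20952590, 33 bases after the same start: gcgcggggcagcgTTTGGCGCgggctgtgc
Uhrf1, word at chr17:56304128-56304135, 185 bases before a start: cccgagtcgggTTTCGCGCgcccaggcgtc

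The first Dnmt1 word is the reverse complement of TTTCGCGC, and the other words lie on the strand of the gene. The 3 words do not overlap each other. Both Dnmt1 stretches fall in a part that the annotation lists as untranslated in some Dnmt1 transcripts. Dnmt1 and Uhrf1 also have other annotated starts, whose windows held no word, and which start is used in these cells was not tested. These other starts lie further upstream, so the words lie downstream of them. Of the 10 genes, 9 had windows in the RefSeq table, 14 in all, and Mbd2 had none. Words were found in 2 of these 14 windows (14.3%), and Dnmt1 and Uhrf1 were the only genes of the 9 that held one. Among all windows, 744 of 32851 (2.26%) held a word, and by gene it was 704 of 27025 (2.60%). All windows were taken without matching for GC content, and shorter forms of the site were not searched. Of the replication genes with a window, 9 of 20 (45.0%) held one, and of the mitosis genes 1 of 13 (7.69%). A match is a description of the letters and not evidence of binding, and a part of E2F proteins in these changes was not tested.

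Tet1, Uhrf1 and Dnmt1 were higher in the KO-labelled libraries, while Dnmt3a was lower. A gene passed the test at an adjusted p under 0.05 in edgeR's quasi-likelihood test, and was called when it also differed by at least 1.5-fold. Of the 10 genes, 2 were called higher (Tet1 and Uhrf1), beside 11.6% of all genes tested, and 0 were called lower, beside 6.10%. Without the fold limit, 5 rose (29.9% of all genes tested), 1 fell (28.8%), and 4 did not pass. The median log2 fold change of the 10 genes was 0.11, beside 0.00 over all genes tested. The CPM ranges of the groups did not overlap for 6 of the 10 genes, beside 64.2% of all genes tested.

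**Figure D1:**
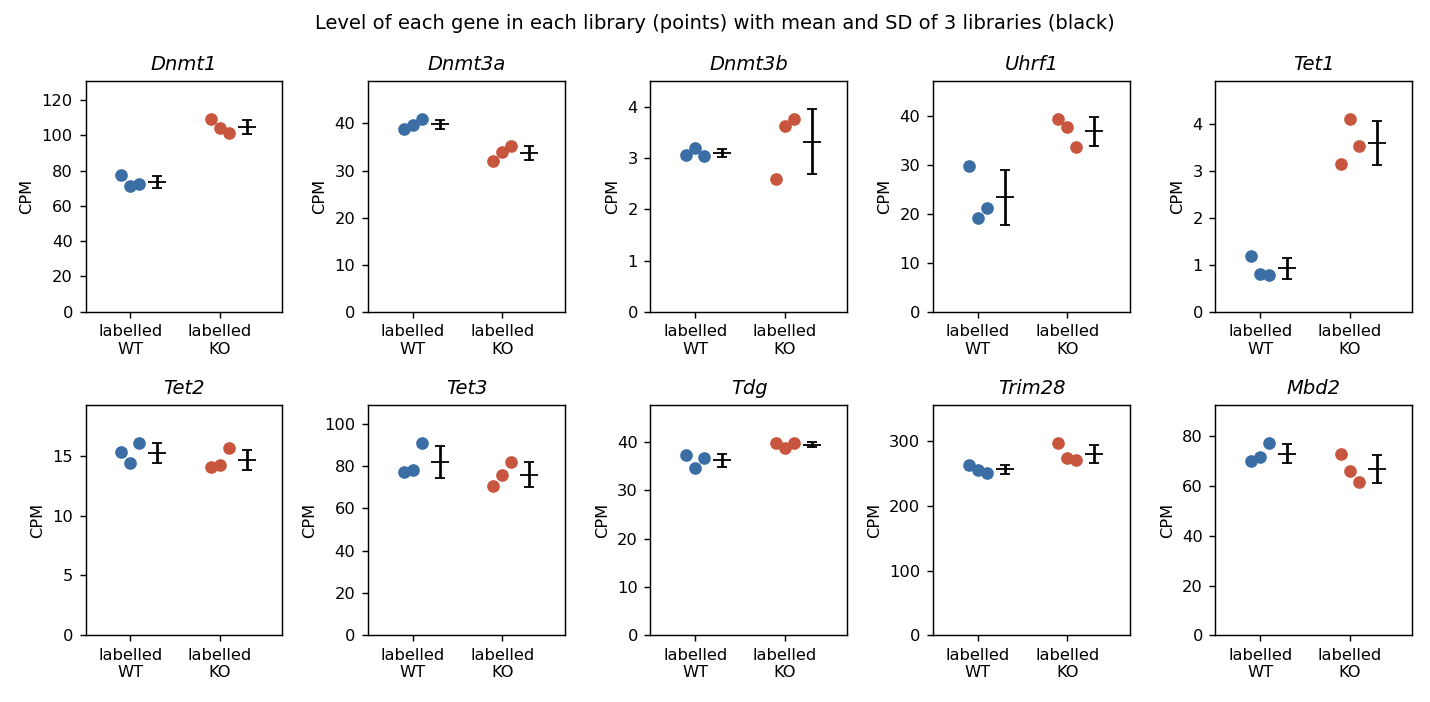
Each panel shows 1 gene, with CPM on a vertical axis that starts at 0, 3 points for the WT-labelled libraries (blue), 3 for the KO-labelled libraries (red), and the mean with its SD in black. The points of the groups are separated for Dnmt1, Dnmt3a, Uhrf1, Tet1, Tdg and Trim28, and overlap for Dnmt3b, Tet2, Tet3 and Mbd2.

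Dnmt1 (ENSMUSG00000004099.16, chr9:20907209-20959888, minus strand, GRCm38), the maintenance methyltransferase, had 77.6, 71.1 and 72.4 CPM in the WT-labelled libraries. In the KO-labelled libraries it had 109, 104 and 101 CPM. The lowest KO-labelled library lay well above the highest labelled WT. The rise was 0.51 ± 0.04 (SE) on the log2 scale, a factor of 1.42 with a 95% interval of 1.34 to 1.51 (edgeR, adjusted p = 3.49e-07). It passed the test but stayed under the fold limit.

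Uhrf1 (ENSMUSG00000001228.14, chr17:56303321-56323486, plus strand), which recruits DNMT1, had 29.8, 19.2 and 21.3 CPM in the WT-labelled libraries and 39.3, 37.8 and 33.7 CPM in the KO-labelled libraries. Replicate 1 stood above the other 2 WT-labelled libraries, at a level nearer to the lowest KO-labelled library. The log2 fold change was 0.66 ± 0.12 (SE), or 1.58-fold with a 95% interval of 1.32 to 1.90 (edgeR, adjusted p = 3.83e-04). The call rests on the fold limit: without WT replicate 2, the lowest library, the log2 fold change was 0.53, which is under 1.5-fold. The SD of the WT-labelled libraries was 24.0% of their mean, against 7.96% in the KO-labelled libraries.

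The de novo enzymes did not follow Dnmt1. Dnmt3a (ENSMUSG00000020661.15, chr12:3806007-3914443, plus strand) had 38.8, 39.7 and 40.8 CPM in the WT-labelled libraries and 32.1, 33.9 and 35.1 CPM in the KO-labelled libraries. All 3 KO-labelled libraries were lower than every WT-labelled library, and Dnmt3a fell by 0.24 ± 0.04 (SE) on the log2 scale (edgeR, adjusted p = 4.59e-04). No other gene of the 10 passed the test downwards. Its exons share 133 bases with Dnmt3aos, an antisense transcript on the opposite strand, and the annotation also lists a Dnmt3a pseudogene. The strand setting of the counting is not given in the sources used here, so reads of Dnmt3aos could be included. The shared bases are a small part of the 16642 exon bases of Dnmt3a, and Dnmt3aos has no row. Whether reads of the pseudogene were counted was not tested.

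Dnmt3b (ENSMUSG00000027478.15, chr2:153649450-153687730, plus strand), the other de novo enzyme, was rare. It had 96, 107 and 97 counts in the WT-labelled libraries and 92, 151 and 124 in the KO-labelled libraries, or 3.06, 3.19 and 3.04 CPM against 2.60, 3.62 and 3.76 CPM. The lowest and the highest of the 6 values were both in the group labelled KO. The log2 fold change was 0.10, with a 95% interval from -0.21 to 0.41 (edgeR, adjusted p = 0.559), an interval that reaches 1.33-fold at its upper end. Single libraries moved it, to 0.24 without KO replicate 1, 0.03 without KO replicate 2 and 0.02 without KO replicate 3.

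Tet1 showed the largest change of the 10 genes, from the lowest level. Tet1 (ENSMUSG00000047146.17, chr10:62804570-62908996, minus strand), a methylcytosine dioxygenase best known from stem and germ cells, had 37, 27 and 25 counts in the WT-labelled libraries and 112, 171 and 117 in the KO-labelled libraries. This corresponds to 1.18, 0.806 and 0.783 CPM against 3.16, 4.10 and 3.54 CPM. Every KO-labelled library was above every WT-labelled library by a wide margin. The log2 fold change was 1.97 ± 0.18 (SE), or 3.92-fold with a 95% interval of 2.99 to 5.15 (edgeR, adjusted p = 1.08e-06).

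The other TET enzymes did not pass the test. Tet2 (ENSMUSG00000040943.12, chr3:133463679-133545139, minus strand), which lacks the CXXC domain of the other TET enzymes, had 15.3, 14.4 and 16.0 CPM in the WT-labelled libraries and 14.1, 14.2 and 15.6 CPM in the KO-labelled libraries. Its log2 fold change was -0.06, with a 95% interval from -0.20 to 0.08 (edgeR, adjusted p = 0.458). Tet3 (ENSMUSG00000034832.15, chr6:83362373-83459084, minus strand), known for its role in the oxidation of the paternal genome after fertilization, had 77.3, 78.2 and 90.8 CPM against 70.3, 75.6 and 82.0 CPM. The groups overlapped for both genes. The log2 fold change of Tet3 was -0.11, with a 95% interval from -0.25 to 0.03 (edgeR, adjusted p = 0.152). Without KO replicate 3, the highest KO-labelled library, it was -0.17 and passed (adjusted p = 0.0278).

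Tdg (ENSMUSG00000034674.18, chr10:82629828-82650799, plus strand), the glycosylase that removes oxidized methylcytosine, had 37.3, 34.7 and 36.7 CPM in the WT-labelled libraries and 39.7, 38.8 and 39.7 CPM in the KO-labelled libraries. The groups did not overlap but lay close together. The log2 fold change was 0.12 ± 0.04 (SE), or 1.09-fold (edgeR, adjusted p = 0.0211). It did not pass with DESeq2 (adjusted p = 0.0749), nor without WT replicate 2 or without KO replicate 1. Tdg also shares 367 exon bases at its end with Glt8d2, a gene on the opposite strand picked here for that overlap alone, which moved from 48.4 ± 2.61 to 33.5 ± 0.200 CPM (mean ± SD, n = 3 each).

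Trim28 (ENSMUSG00000005566.14, chr7:12999114-13031035, plus strand), the scaffold of zinc finger silencing, was the most abundant of the 10. It had 264, 256 and 250.3 CPM in the WT-labelled libraries and 297, 274 and 271 CPM in the KO-labelled libraries. The groups did not overlap, but lay apart by less than the range of the KO-labelled libraries. Its log2 fold change was 0.13 ± 0.04 (SE), or 1.09-fold (edgeR, adjusted p = 0.0101). It did not pass with limma on the deposited log2 values (adjusted p = 0.0778) or without KO replicate 1.

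Mbd2 (ENSMUSG00000024513.16), which reads methylated CG sites for the NuRD complex, had 70.2, 71.6 and 77.2 CPM in the WT-labelled libraries and 72.9, 66.2 and 61.6 CPM in the KO-labelled libraries. KO replicate 1 lay inside the range of the WT-labelled libraries, and the other 2 lay below it. The log2 fold change was -0.13 ± 0.06 (SE), with an adjusted p of 0.0699 in edgeR. It passed without KO replicate 1 (log2 fold change -0.20) or without WT replicate 1 (-0.15).

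**Figure D2:**
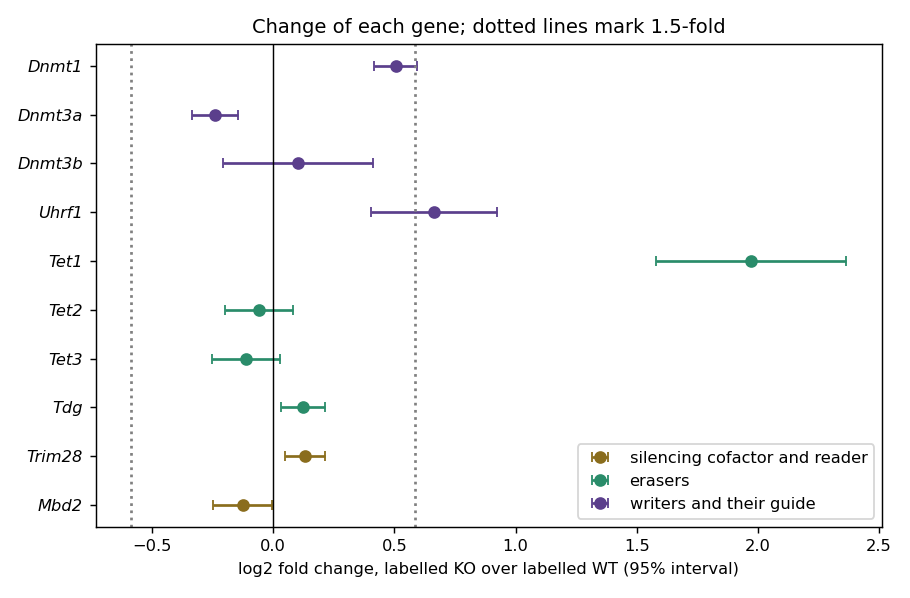
Log2 fold change (horizontal axis, labelled KO over labelled WT) of the 10 genes with 95% intervals from edgeR, coloured by role, with dotted lines at 1.5-fold. Tet1 lies far to the right at 1.97, Uhrf1 and Dnmt1 follow at 0.66 and 0.51, Dnmt3a lies below 0 at -0.24, and the intervals of Dnmt3b, Tet2 and Tet3 span 0.

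Levels of different genes were compared per length, as CPM per kilobase of exon (RPKM), with the union of annotated exons as the length. In the WT-labelled libraries the order ran from Trim28 at 61.7 ± 1.62 RPKM (SD, n = 3) and Mbd2 at 22.7 ± 1.15 to Dnmt1 at 9.99 ± 0.465. Tdg, Uhrf1 and Tet3 followed at 6.74, 5.49 and 4.92 RPKM. The ranges of Tdg and Uhrf1 overlapped, as did those of Uhrf1 and Tet3, and these neighbours do not differ beyond their spread. Below them came Dnmt3a at 2.39, Tet2 at 0.904, Dnmt3b at 0.607 and Tet1 at 0.0597 RPKM.

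In the KO-labelled libraries, Uhrf1 stood above Tdg, at 8.67 ± 0.690 against 7.34 ± 0.0981 RPKM, and no neighbours overlapped. The remaining order was as in the WT-labelled libraries, from Trim28 at 67.5 RPKM to Dnmt3b at 0.651 and Tet1 at 0.233. Even after its rise, Tet1 was thus the lowest of the 10 genes per length. With the longest annotated transcript as the length, Tet3 stood above Uhrf1 in the WT-labelled libraries with ranges that still overlapped, and Tdg stood above Uhrf1 in the KO-labelled libraries.

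Within a library, the makeup of each enzyme family does not depend on library scaling. Dnmt1 made up 78.2, 76.2 and 76.3% of the DNMT sum (in RPKM) in the WT-labelled libraries and 85.8, 83.7 and 82.8% in the KO-labelled libraries. The share of Dnmt3a moved the other way, from 18.4 ± 0.943% to 12.0 ± 0.766% (SD, n = 3 each). Dnmt1 thus exceeded Dnmt3a by a mean factor of 4.18 in the WT-labelled libraries and 7.02 in the KO-labelled libraries. The share of Dnmt3b was 4.68 ± 0.247% and 3.87 ± 0.800%, a difference of -0.80 percentage points that was -0.35 without KO replicate 1, the library with the lowest share.

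Tet3 dominated the TET sum in both groups, at 83.6 ± 1.01% in the WT-labelled libraries and 80.5 ± 0.402% in the KO-labelled libraries. Tet1 took 1.36, 0.933 and 0.787% of the TET sum in the WT-labelled libraries and 3.89, 4.71 and 3.78% in the KO-labelled libraries. The share of Tet2 was 15.4% in both groups. The ratio of the TET sum to the DNMT sum was 0.453 ± 0.0428 in the WT-labelled libraries and 0.336 ± 0.0306 in the KO-labelled libraries, a difference of -0.43 on the log2 scale. These sums are of RNA, and protein, enzyme activity and DNA methylation were not measured in these libraries.

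For each of these shares and ratios except that of Tet2, the groups did not overlap. For the Dnmt3b share they almost touched, at 4.46% in WT replicate 1 and 4.44% in KO replicate 3. A two-sided exact permutation test over the 6 libraries gave p = 0.1 for each of the quantities without overlap. This is the smallest p that 3 against 3 libraries allow, and it was 0.133 after Benjamini-Hochberg adjustment over 12 quantities. For the Tet2 share the exact permutation p was 1. An exact permutation test of 3 against 3 libraries cannot reach p = 0.05.

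**Figure D3:**
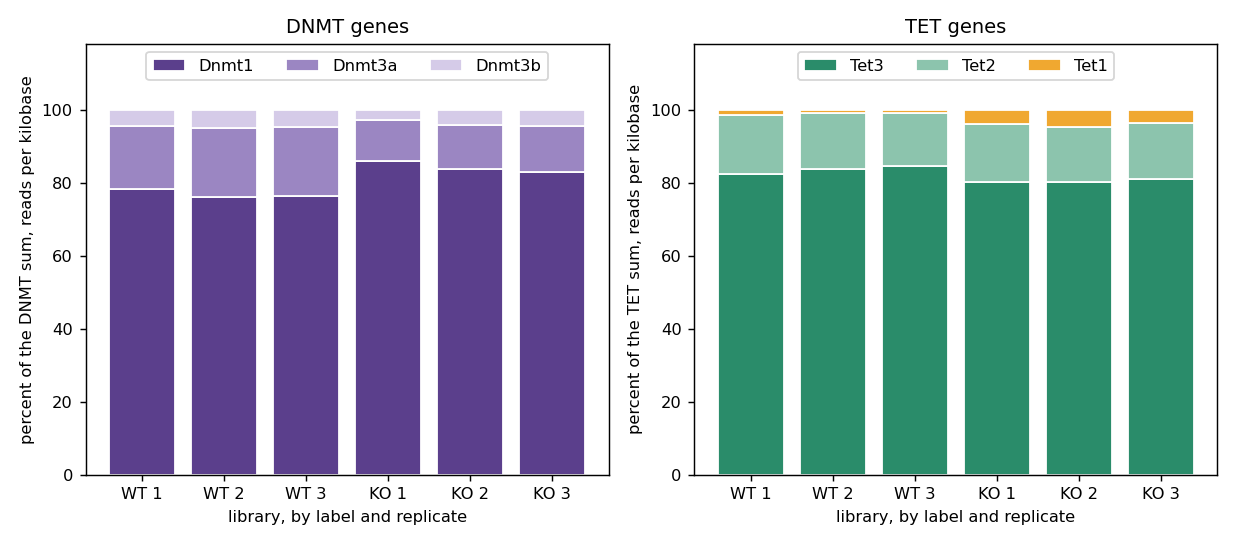
Stacked bars give, for each of the 6 libraries (horizontal axis), the percent of the DNMT sum (left) and of the TET sum (right) in reads per kilobase (vertical axis, from 0). The Dnmt1 part is taller in the 3 KO-labelled libraries, at 82.8 to 85.8%, and the thin Tet1 part at the top of the right panel widens to between 3.78 and 4.71%.

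Dnmt1 and Uhrf1 moved together with genes of DNA replication. Of 26 replication genes, 14 were called higher and 0 lower, and without the fold limit 23 rose and 1 fell (E2f1, by 0.14 on the log2 scale). Over all genes tested, 11.6% were called higher and 6.10% lower, and without the fold limit 29.9% rose and 28.8% fell. The median log2 fold change of the 26 replication genes was 0.62. The largest rises were those of Rrm2, a subunit of ribonucleotide reductase (1.37 ± 0.13 SE), Tk1, thymidine kinase (1.14 ± 0.12), and Mcm5, a subunit of the replicative helicase (1.10 ± 0.10). All 15 mitosis genes were called higher, with a median of 1.55, led by the cyclins Ccnb2 (2.10 ± 0.09) and Ccnb1 (1.92 ± 0.11) and the kinetochore gene Cenpf (1.78 ± 0.07).

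The summed replication genes reached 859, 766 and 750.0 CPM in the WT-labelled libraries and 1119, 1072 and 985 CPM in the KO-labelled libraries, and WT replicate 1 was the highest of its group in this sum as it was in Uhrf1. The summed mitosis genes reached 256, 212 and 214 CPM against 692, 664 and 590.3 CPM. Relative to the replication sum of the same library, Dnmt1 was higher in the KO-labelled libraries by 0.09 on the log2 scale (exact permutation p = 0.1, adjusted 0.133). The groups did not overlap but almost touched, at 0.0966 of the sum in WT replicate 3 and 0.0969 in KO replicate 2. The sum is weighted towards abundant genes. Rrm1, named after its value was seen, had a mean of 187 CPM in the WT-labelled libraries and rose by 0.16 on the log2 scale. The median replication gene rose by 0.62, which is more than Dnmt1 at 0.51 and near Uhrf1 at 0.66. Uhrf1 was higher by 0.26 relative to the same sum, with overlapping groups (exact permutation p = 0.2, adjusted 0.240). This difference was 0.15 without WT replicate 2 and 0.39 without WT replicate 1. Relative to the mitosis sum, Uhrf1 was lower by 0.83 on the log2 scale, again without overlap (exact permutation p = 0.1, adjusted 0.133). The ratio of Dnmt1 to Uhrf1 per length was 1.87 ± 0.329 and 1.64 ± 0.0829 (SD, n = 3 each), with overlapping groups (exact permutation p = 0.4, adjusted 0.436). On the log2 scale this ratio differed by -0.18, by -0.32 without WT replicate 1 and by -0.07 without WT replicate 2. The part of the replication and mitosis genes in the changes of Dnmt1 and Uhrf1 was not tested.

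**Figure D4:**
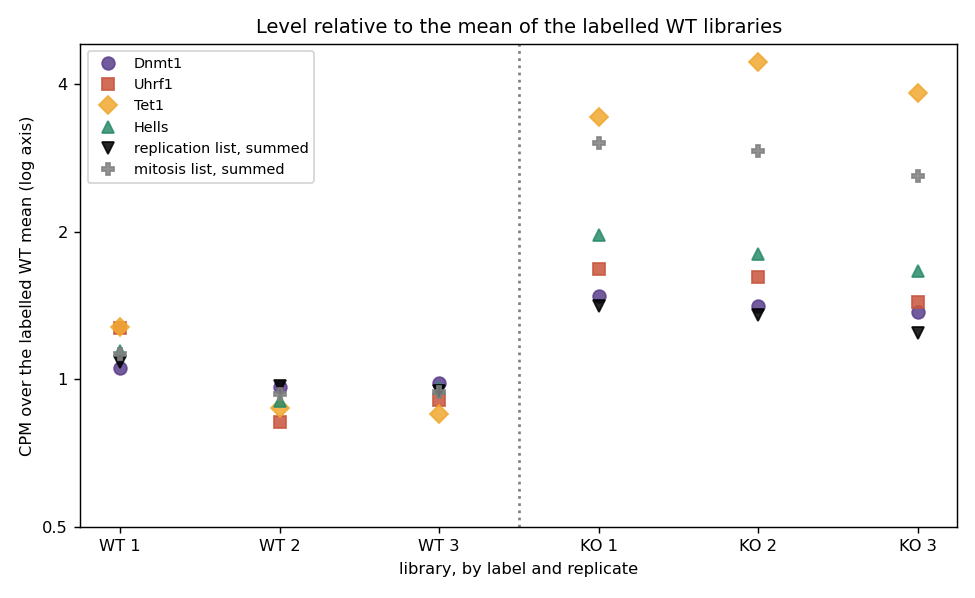
CPM of Dnmt1, Uhrf1, Tet1 and Hells and of the summed replication and mitosis genes in each library, divided by the mean of the WT-labelled libraries (vertical axis, logarithmic). In the 3 KO-labelled libraries on the right, Dnmt1 and Uhrf1 sit beside the replication sum (mean factor 1.34), while Tet1 sits higher than the mitosis sum (mean factor 2.85).

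Each list below is to be read beside the 29.9% of all genes tested that rose and the 28.8% that fell, and with the fold limit beside 11.6% and 6.10%. Among 11 tested partners of the writers, 7 rose and 3 fell, with a median log2 fold change of 0.16. Both genes called were higher. Hells, the remodeller that DNMT enzymes need at repeats, moved from 16.7 ± 2.08 to 30.3 ± 2.56 CPM (log2 fold change 0.86 ± 0.08 SE). Cdca7l, a relative of the HELLS partner CDCA7, moved from 4.94 ± 0.400 to 8.28 ± 0.638 CPM (0.75 ± 0.09). The genes that fell, chosen after their values were seen, were the histone methyltransferase genes Ehmt2 and Ehmt1, by 0.21 and 0.11 on the log2 scale, and Usp7, which stabilizes DNMT1 and UHRF1, by 0.19. No row of the table matched Dnmt3l or Dppa3.

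The genes listed as partners and metabolic supply of the TET enzymes went mostly the other way, with 6 of 8 genes that fell, 2 that rose and a median of -0.39. The list does not separate genes that aid TET enzymes from genes that restrain them, so its direction is not one of TET support. Cxxc5, a CXXC protein that binds TET2, fell most, from 25.6 ± 0.589 to 5.20 ± 0.229 CPM, by 2.30 ± 0.06 (SE) on the log2 scale. Cxxc4, its close relative, had 69, 89 and 101 counts in the WT-labelled libraries and 33, 45 and 31 in the KO-labelled libraries, and fell by 1.43 ± 0.18. Wt1, a transcription factor that can recruit TET2, rose from 1.61 ± 0.254 to 5.73 ± 0.406 CPM (1.83 ± 0.13). Genes that supply α-ketoglutarate, the cosubstrate of TET enzymes, were chosen after their values were seen: Idh1 and Idh2 fell by 0.33 and 0.38, and Idh3a rose by 0.19. Tet1 itself rose, while the genes of this list were mostly lower.

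Of 13 base excision repair genes tested, 4 rose and 3 fell, close to the 29.9% and 28.8% of all genes tested, with a median of 0.11. Neil3, a glycosylase of dividing cells, was called higher, from 4.42 ± 0.400 to 12.2 ± 0.721 CPM (log2 fold change 1.47 ± 0.09 SE). Gadd45a, a stress-induced gene linked to active demethylation, was called lower, from 62.6 ± 5.25 to 36.3 ± 2.46 CPM, by 0.78 ± 0.06. Its paralogues Gadd45b and Gadd45g, named after their values were seen, rose by 0.52 and 0.32 on the log2 scale. Of the 13 genes of the methionine and folate cycles that supply the methyl donor, 9 rose and 1 fell (Ahcyl2, by 0.53), with a median of 0.14. Shmt2 and Mthfd1, both enzymes of folate metabolism, were called higher, by 0.61 ± 0.06 and 0.60 ± 0.04. Both lie close to the fold limit, and 1 gene of this list was called without WT replicate 2, without WT replicate 3 or without KO replicate 1.

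Of 10 other genes of the methyl-CG reader families, 0 were called, 4 rose and 2 fell, beside 29.9% and 28.8% of all genes tested, with a median of -0.04, and 1 was called without WT replicate 3 or without KO replicate 1. Named after their values were seen, those that rose were Mbd4, a glycosylase, by 0.54 on the log2 scale, and Zbtb38, Uhrf2 and Mbd6 by 0.28, 0.27 and 0.22, and among those that fell was Mbd1, by 0.38. Of 14 partners of Trim28 and Mbd2 in the HP1 and NuRD complexes, 0 were called, 3 rose and 6 fell, with a median of -0.07. Chd3, a NuRD remodeller, rose by 0.35 and Mta1, another NuRD subunit, fell by 0.54, both named after their values were seen.

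Germline genes that are known to be silenced by methylation in somatic cells were mostly absent from the table, with 3 of 16 having a row, Brdt, Tdrkh and Dpep3. None was called, and Brdt fell by 0.48 on the log2 scale. The table holds genes left after low counts were removed, so a gene without a row is not analysed here.

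**Figure D5:**
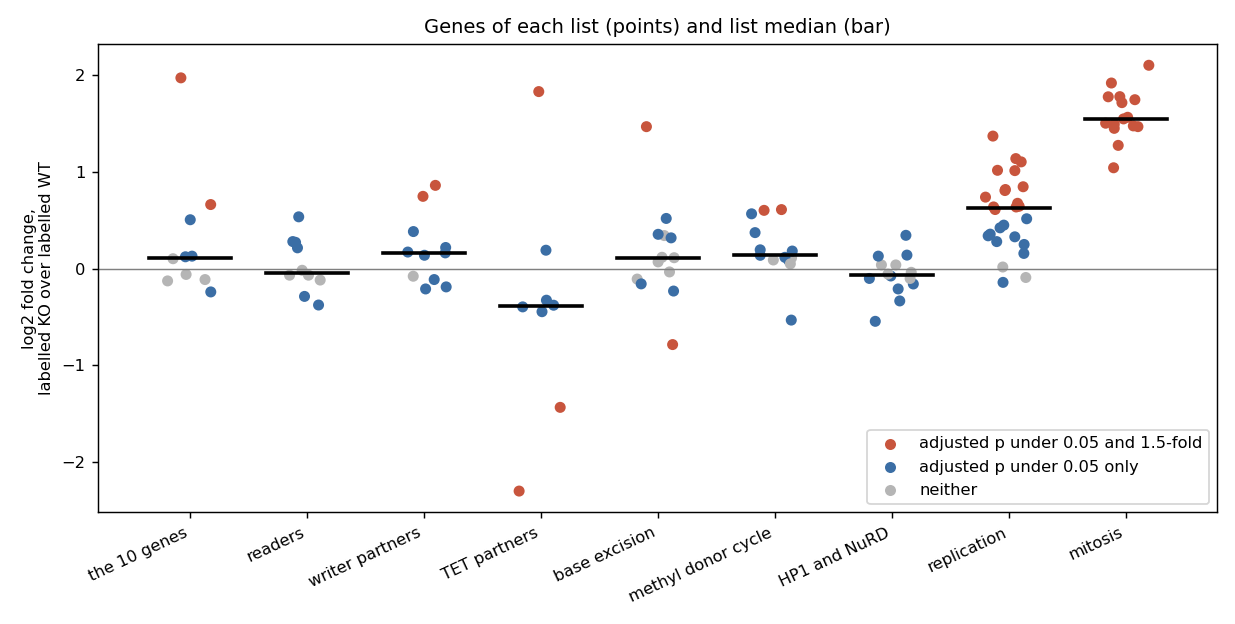
Log2 fold change (vertical axis, labelled KO over labelled WT) of each gene tested in the lists named on the horizontal axis, with the list median as a black bar and the colour giving the outcome of edgeR's test. The mitosis genes lie wholly above 1 and the replication genes centre on 0.62, while the readers and the HP1 and NuRD genes lie around 0.

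Markers of the labelled cell type were present, and most of those tested differed between the groups. The 9 fibroblast markers with a row summed to between 44824 and 47238 CPM in the WT-labelled libraries and 36791 and 38540 CPM in the KO-labelled libraries. Of the 8 tested, S100a4 was called higher, by 1.67, and 4 were called lower, among them Dcn (-1.55), Col3a1 (-0.94) and Pdgfra (-0.90) and, named after its value was seen, Pdgfrb (-0.66). Col1a1, Col1a2 and Vim, also named after their values were seen, were not called. Col1a1, at a mean of 15982 CPM (labelled WT) and 16113 CPM (labelled KO), did not pass (edgeR, adjusted p = 0.799). Col1a2 and Vim passed with log2 fold changes of -0.19 and -0.13. Pdpn had no row and Thy1 had 0 to 4 counts in the WT-labelled libraries and 9 to 19 in the KO-labelled libraries. The 4 of 10 epithelial markers with a row summed to 12.8 to 13.8 CPM against 29.5 to 30.4 CPM, and of the 3 tested, Krt7 (2.40) and, named after its value was seen, Cdh1 (1.08) were called higher, while Sox9, also named after its value was seen, fell by 0.50 on the log2 scale. Krt7 carried the rise of the sum, with a mean of 4.38 CPM (labelled WT) and 23.1 CPM (labelled KO). Cdh1 was rare, with 10, 14 and 9 counts in the WT-labelled libraries and 28, 33 and 19 in the KO-labelled libraries. Epcam, Krt18 and Krt19 had no row.

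Macrophage markers had 4 rows of 8, summing to 55.6 to 60.8 CPM in the WT-labelled libraries and 52.4 to 54.1 CPM in the KO-labelled libraries, with 0 called and no row for Ptprc or Adgre1. Most of this sum was Lyz2 and Cd14, named after their values were seen, at means of 41.1 and 15.7 CPM in the WT-labelled libraries. Cd68 and Csf1r, at means of 1.17 and 1.00 CPM there, did not pass. Of the 6 endothelial markers, Vwf alone had a row, at 0.866 to 1.60 and 0.763 to 0.939 CPM, and did not pass. In such bulk libraries, fewer cells of a kind and less RNA per cell cannot be told apart, and the part of these marker differences in the changes of the 10 genes was not tested.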

How the data were processed

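The authors deposited raw read counts per gene and log2 values, the latter log2 of CPM with an offset of 0.5 from limma's voom. Genes with low counts are missing from both tables. The submitters' processing notes name STAR 2.7.2b, featureCounts, limma and GRCm38.p6, without role or order, and the strand setting is not given in the sources used here.

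The 6 libraries were grouped by the labels. Counts were fitted with edgeR 4.0.16 (R 4.3.3; TMM scaling, filterByExpr, quasi-likelihood F-test, group as the only term), and p-values were adjusted by Benjamini-Hochberg over all 14289 genes tested. Standard errors came from the log2 fold change over the square root of F. Library totals were 31728420, 33905521 and 32297675 counts (labelled WT) and 34946147, 41035931 and 32781730 (labelled KO), and the common biological coefficient of variation was 3.74%. Counts are reads, without molecular identifiers, and the value given for 3 counts covers counting error only. Shares and ratios within a library were compared by exact permutation tests. The fit was also run on simulated counts in which far fewer genes changed than in these data. That run therefore does not vouch for the scaling or the calls here. Exon lengths came from the GRCm38 annotation, in which 14822 of the 14831 gene identifiers were found when version numbers were ignored.

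The 10 genes and all lists were chosen with earlier results of these data known. Besides the 10 genes, Gli2 and Gli3, the text names from each list up to 3 genes per direction with the largest change among those called, provided that each library of the group with more reads held at least 50 counts. It mostly says where it names others. Gli1, E2f1, Ahcyl2 and Brdt were also named outside this rule, after their values were seen. Alternatives were other scalings, filters and fold limits, DESeq2 1.42.0, limma 3.58.1 on counts and on the deposited log2 values, another gene length, and leaving out each library. No alternative was added later.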

Additional observations from a re-analysis of the deposited data

How the results depend on the processing

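The log2 fold changes of all 10 genes kept their sign under each of the 14 refits, and Dnmt1 (0.47 to 0.56), Uhrf1 (0.53 to 0.87), Tet1 (1.86 to 2.18) and Dnmt3a (-0.27 to -0.18) passed the test in each, with adjusted p at most 0.0253 in edgeR, DESeq2 and limma. Other scalings moved the median log2 fold change of all genes to at most 0.06, and 1926 to 2670 genes were called over the settings.

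The smaller changes depended on the test, the scaling or on 1 library. With DESeq2, Tdg was 0.12 (adjusted p = 0.0749), and with limma on the deposited log2 values Trim28 was 0.13 (adjusted p = 0.0778); neither passed. When single libraries were left out, the log2 fold change ran from 0.091 to 0.14 for Tdg, 0.083 to 0.16 for Trim28, -0.20 to -0.071 for Mbd2, -0.17 to -0.036 for Tet3, 0.02 to 0.24 for Dnmt3b and -0.10 to -0.02 for Tet2. The number of genes called ran from 1 to 2 of the 10 genes, 0 to 1 of the readers, 1 to 2 of the methyl donor genes and 11 to 16 of the replication genes. Adjusted p over all refits ran from 0.00230 to 0.110 for Tdg, 0.00114 to 0.0778 for Trim28, 0.00663 to 0.317 for Mbd2 and 0.0278 to 0.600 for Tet3; the cause was not tested.

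With no fold limit, 6 of the 10 genes, 6 readers, 10 writer partners, 8 TET partners, 7 base excision repair genes, 10 methyl donor genes, 9 HP1 and NuRD genes, 1 germline gene and 24 replication genes were called, because smaller changes then count. With a limit of 2-fold it was 1 of the 10 genes (Tet1), 0 writer partners, 1 base excision repair gene, 0 methyl donor genes and 5 replication genes. Upper-quartile scaling called 1 reader, and 3 methyl donor genes were called with it and with total-count scaling. Upper-quartile scaling moved the log2 fold change of Mbd2 to -0.07, of Tet3 to -0.06, of Tet2 to -0.0023 and of Dnmt3b to 0.16. With the longest transcript as the gene length, the difference in share was 2.15 percentage points for Tet1, against 3.10, and -7.88 for Dnmt3a, against -6.41. No paired analysis was possible because the labels give the libraries no shared replicate numbers.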
